A study of Homo sapiens with 15 samples.

Results

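The established cell line MHCC-97H, from a human hepatocellular carcinoma, was grown in a 2D model and in a 3D model. The transcripts of both were counted by RNA sequencing in the first round of the study. The second round holds the heat-treated 3D libraries and their controls, and the labels name no sequencing batch. The comparison described here sets 3 libraries of the 3D model against 3 libraries of the 2D model, 6 of the 15 libraries of the series. It covers the 12925 of 19143 gene rows that passed a filter on low counts. The series asks which features a 3D environment gives to these cells, and its title names mechanical confinement and resistance to heat. Per the labels, both groups are the same untreated line, and no genotype change or agent is given for either. The labels do not describe the material, stiffness, size or culture time of the 3D model, nor do they say that replicates were separate cultures, so p-values measure the spread between these libraries. The fit also held 3 first-round libraries of an animal model of the same line. They entered the low-count filter, the scaling, the offset described below and the estimate of the spread, but not the contrast of 3D with 2D. The 3 untreated 3D libraries of the second round, called 3D controls, are used for levels alone.

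Total counts were 17789899 to 17879280 per 2D library and 16632141 to 18634295 per 3D library. The 3D libraries did not resemble each other as closely as the 2D libraries did. The median size of the log2 difference between 2 libraries was 0.071 to 0.0785 within 2D, 0.353 between 3D replicates 1 and 2, 0.716 between 1 and 3, and 0.969 between 2 and 3. In 3D replicates 1 and 2 the departure of a gene from its 2D mean followed the GC content of its transcript, with rank correlations across genes of 0.717 and 0.805, against 0.106 in replicate 3 and -0.116 to 0.158 in the 2D libraries. These correlations are descriptions, since genes share a library and are not replicates. The 10% of genes with the lowest GC content (median 37.2%) had a median departure of -1.38, -2.14 and 0.04 in 3D replicates 1, 2 and 3 on the log2(CPM + 1) scale. The 10% with the highest (median 64.5%) had 0.99, 1.31 and 0.21. FTL, the ferritin light chain, took 3.47, 3.04 and 1.33% of the counts in 3D replicates 1, 2 and 3 and 1.12 to 1.2% in 2D. Mitochondrial transcripts took 4.57, 2.57 and 11.3%, against 7.56 to 8.50% in 2D. For that reason the counts are given with all 3 libraries, with 3D replicate 3 alone, and with an offset that removes from every library what followed GC content and transcript length. What part RNA quality or library preparation had in the trend was not tested.

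**Figure D1:**
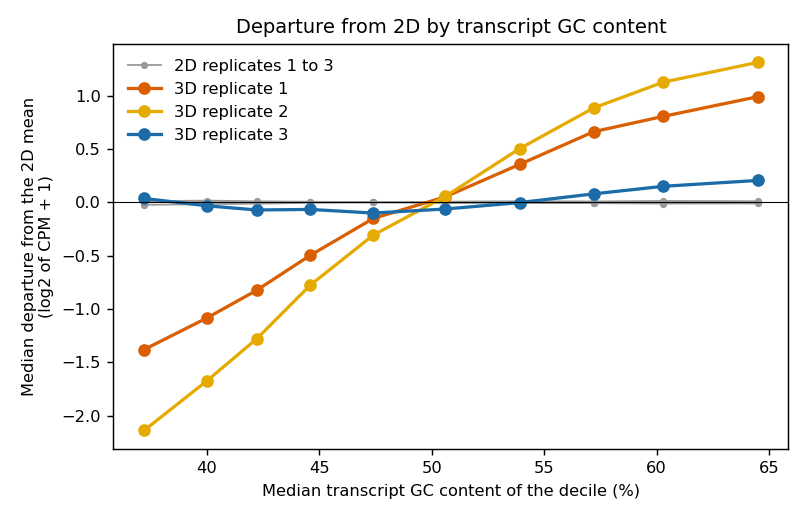
Median departure from the 2D mean, log2 of CPM + 1, in equal bins of the tested genes ordered by transcript GC content (x axis, median GC in percent). The lines of 3D replicates 1 and 2 run from -1.38 and -2.14 at the lowest GC content to 0.99 and 1.31 at the highest, while 3D replicate 3 stays between -0.10 and 0.21 and the 2D libraries lie on 0.

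Cells in a dense 3D mass receive oxygen by diffusion. When oxygen is short, the prolyl hydroxylases of the EGLN family no longer mark the HIF proteins for destruction through VHL, and HIF dimers switch on genes of glucose transport, glycolysis, angiogenesis and pH control through a short core element in promoters and enhancers. Proliferating cells depend on E2F factors, which turn on the genes that license, copy and repair DNA. Dual oxidases make hydrogen peroxide at the surface of mucosal epithelia and belong, with lipocalin, trefoil factors and mucins, to a secretory program that inflammatory signals acting through NF-kappaB can raise.

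Promoter sequences of RefSeq (GRCh38.p14) are shown for some genes of these programs, and each window marked for a motif holds a match. They cover 250 bases before the start of each gene, 5′ to 3′ on the gene's strand. DUOX2 and DUOXA2, a dual oxidase and the factor that matures it, lie head to head on chromosome 15, and their starts, at 45114172 and 45114326, are 154 bases apart, so that the window before DUOXA2 (chr15:45114076-45114325, plus strand) also holds the start of DUOX2. Capitals mark the bases between both starts.
DUOXA2: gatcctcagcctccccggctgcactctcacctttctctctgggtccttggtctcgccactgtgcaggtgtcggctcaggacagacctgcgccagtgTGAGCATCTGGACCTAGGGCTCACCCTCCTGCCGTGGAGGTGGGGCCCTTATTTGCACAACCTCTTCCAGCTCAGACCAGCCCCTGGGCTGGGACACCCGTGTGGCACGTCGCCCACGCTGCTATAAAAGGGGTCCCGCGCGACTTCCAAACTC
For LCN2, which encodes lipocalin 2 (chr9:128149203-128149452, plus strand), capitals mark a match to the kappaB consensus.
LCN2: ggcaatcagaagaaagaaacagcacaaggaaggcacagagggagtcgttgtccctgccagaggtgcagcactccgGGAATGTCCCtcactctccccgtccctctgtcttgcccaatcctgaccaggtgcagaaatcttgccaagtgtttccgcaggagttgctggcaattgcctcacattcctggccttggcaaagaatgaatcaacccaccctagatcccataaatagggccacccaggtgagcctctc
For CA9, carbonic anhydrase 9 (chr9:35673678-35673927, plus strand), ANGPTL4, a secreted inhibitor of lipoprotein lipase (chr19:8363905-8364154, plus strand), and ALDOC, aldolase C (chr17:28576896-28577145, minus strand), capitals mark the hypoxia core ACGTG or GCGTG on either strand.
CA9: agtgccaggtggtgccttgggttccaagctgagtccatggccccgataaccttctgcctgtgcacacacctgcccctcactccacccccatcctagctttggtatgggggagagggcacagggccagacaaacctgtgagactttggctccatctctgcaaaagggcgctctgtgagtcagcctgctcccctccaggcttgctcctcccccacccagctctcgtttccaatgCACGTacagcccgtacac
ANGPTL4: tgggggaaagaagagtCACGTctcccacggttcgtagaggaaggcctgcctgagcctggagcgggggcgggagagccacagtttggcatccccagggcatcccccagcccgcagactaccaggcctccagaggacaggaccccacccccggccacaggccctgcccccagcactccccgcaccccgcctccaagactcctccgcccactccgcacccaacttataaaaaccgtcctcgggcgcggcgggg
ALDOC: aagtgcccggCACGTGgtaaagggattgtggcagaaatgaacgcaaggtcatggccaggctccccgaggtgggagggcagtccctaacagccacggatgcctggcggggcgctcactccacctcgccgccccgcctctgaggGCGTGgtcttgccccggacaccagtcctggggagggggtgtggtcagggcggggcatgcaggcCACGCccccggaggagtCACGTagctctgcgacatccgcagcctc
For PCNA, the sliding clamp of DNA replication (chr20:5126623-5126872, minus strand), and CDC25A, a phosphatase that activates cyclin-dependent kinases (chr3:48188418-48188667, minus strand), capitals mark the E2F element TTTCCCGC or TTTGGCGC on either strand.
PCNA: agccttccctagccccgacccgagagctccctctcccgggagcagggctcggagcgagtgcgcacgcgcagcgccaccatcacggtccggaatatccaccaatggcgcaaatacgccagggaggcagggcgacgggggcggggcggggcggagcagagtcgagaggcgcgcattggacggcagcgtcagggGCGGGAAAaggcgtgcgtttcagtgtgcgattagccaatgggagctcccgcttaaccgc
CDC25A: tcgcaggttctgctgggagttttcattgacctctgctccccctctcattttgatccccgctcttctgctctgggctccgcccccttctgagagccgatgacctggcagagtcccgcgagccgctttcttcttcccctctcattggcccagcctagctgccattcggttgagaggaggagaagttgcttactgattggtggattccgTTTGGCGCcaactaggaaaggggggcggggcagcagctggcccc

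The hypoxia core stood in 23 of 28 matched promoters of the hypoxia list (82.1%), in 13 of 23 of the glycolysis list (56.5%) and in 56.8% of the 10416 promoters matched to tested genes. It stood also in 70.8% of the promoters of the replication list and 73.7% of those of the kinesins, and in 53.7% of those of genes higher and 58.9% of genes lower in all 3 fits. Of all 27305 promoters in the RefSeq table, 43.1% held it. The CA9 match begins 18 bases before the start. ALDOC has 5 matches, of which the first pair overlap. The E2F element stood in 9 of 24 promoters of the replication list (37.5%), in 0 of 20 of the Fanconi and recombination list and in 3.09% of those of tested genes (1.96% of all). The kappaB consensus stood in 11.6% of tested genes' promoters and in 13.5% and 10.7% of those of genes higher and lower in all 3 fits. The printed promoters do not stand for all members: EGLN3 had 0 hypoxia cores, and MCM10 and RRM1 had 0 E2F elements. A match describes these letters only.

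With all 3 libraries, 2586 genes (20%) were higher in 3D and 1661 (12.9%) lower (32.9% in all) at a Benjamini-Hochberg adjusted p below 0.05 in edgeR's quasi-likelihood test. The median log2 fold change of all tested genes was 0.03. With 3D replicate 3 alone, which is then assumed to vary like the other groups, 3111 of 13604 genes (22.9%) were higher and 3205 (23.6%) lower. With the GC and length offset the counts were 2070 (16%) and 2148 (16.6%). The share of higher genes among those called was therefore 60.9% with all libraries, 49.3% with replicate 3 alone and 49.1% with the offset. Calls that stood in all 3 fits numbered 1172 higher (9.07%) and 951 lower (7.36%). These fits share the same 2D libraries and 3D replicate 3. The fit with replicate 3 alone holds no spread between 3D libraries, and its p-values rest on that of the 2D and animal libraries. Yet the 3D libraries differed more from each other, with median log2 differences of 0.353 to 0.969 against 0.071 to 0.0785 within 2D. All 3D libraries lay above all 2D libraries in 24.5% of the tested genes and below them in 25.6%. The counts with all libraries depended on which were in the fit. Leaving out 1 of the 2D libraries left 1132 to 1221 higher and 663 to 729 lower, leaving out 3D replicate 1 left 1618 and 798, and leaving out 3D replicate 3 gave 4560 and 4933.

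Changes were larger upward than downward. Among called genes, 523 were more than 4-fold higher and 122 more than 4-fold lower with all libraries, and 551 and 66 with replicate 3 alone. Past 8-fold there were 162 higher and 7 lower, and with replicate 3 alone 184 and 17.

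The genes called higher with all libraries but not with replicate 3 alone were short and rich in GC. There were 857 of them, with a median GC content of 59.5% and a median transcript length of 2062 bases, against 48.8% and 3360 bases for all tested genes. Genes called higher in both fits were nearly as short and rich in GC, with medians of 57.8% and 2411 bases. Those lower in both were long and poor in GC, at 43.3% and 4330 bases. GPX2, a glutathione peroxidase of epithelia, was called higher with all libraries but not with replicate 3 alone. It was singled out after its values were seen, as were GSTP1, ELOB and BAD. GPX2 measured 485, 466 and 487 CPM in 2D and 2349.6, 2655 and 505 CPM in 3D (log2 fold change 1.94 with all libraries, 0.06 with replicate 3 alone). GSTP1, a glutathione transferase, measured 76.7, 73.1 and 80.1 CPM in 2D and 294, 315 and 73.5 CPM in 3D. ELOB, elongin B, and BAD, a pro-apoptotic BCL2 relative, had the same form, with 721, 618 and 169 CPM and 151, 163 and 37.9 CPM in 3D against means of 158 and 33.7 CPM in 2D. The calls of all 4 genes as higher ended without any 1 of the 2D libraries or without 3D replicate 1 (adjusted p 0.0625 to 0.098), and those of GPX2, GSTP1 and ELOB also without 3D replicate 2 (adjusted p 0.0504 to 0.0749). For these genes the third 3D library lay beside the 2D level, and the first and second lay several-fold above it. Among all 2586 higher genes, replicate 3 lay inside the 2D range for 80 and below it for 42. For none of the 1661 lower genes did replicate 3 lie inside or above the 2D range. One gene was called in opposite directions: POLR2E, a subunit shared by the RNA polymerases, measured 297, 285 and 288 CPM in 2D and 899, 951 and 243 CPM in 3D, with log2 fold changes of 1.27 (adjusted p = 0.0473) and -0.27 (adjusted p = 0.0411, replicate 3 alone). Leaving out any 1 of the 2D or animal libraries, or 3D replicate 1 or 2, ended its call as higher (adjusted p 0.0735 to 0.155).

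Conversely, 1299 genes higher with replicate 3 alone were not called with all libraries (median GC content 43.1%), nor were 1714 genes lower with replicate 3 alone (54.3%). The lists and their members were chosen with earlier results of these data known, and beside each list's most strongly called members others are named after their values were seen. Most gene lists below are given by their counts with all libraries, and by counts or the median with replicate 3 alone. Counts of the keratin, mesenchymal transition and ATF4 lists are not reported here. The plot of fold changes places every gene in both fits.

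**Figure D2:**
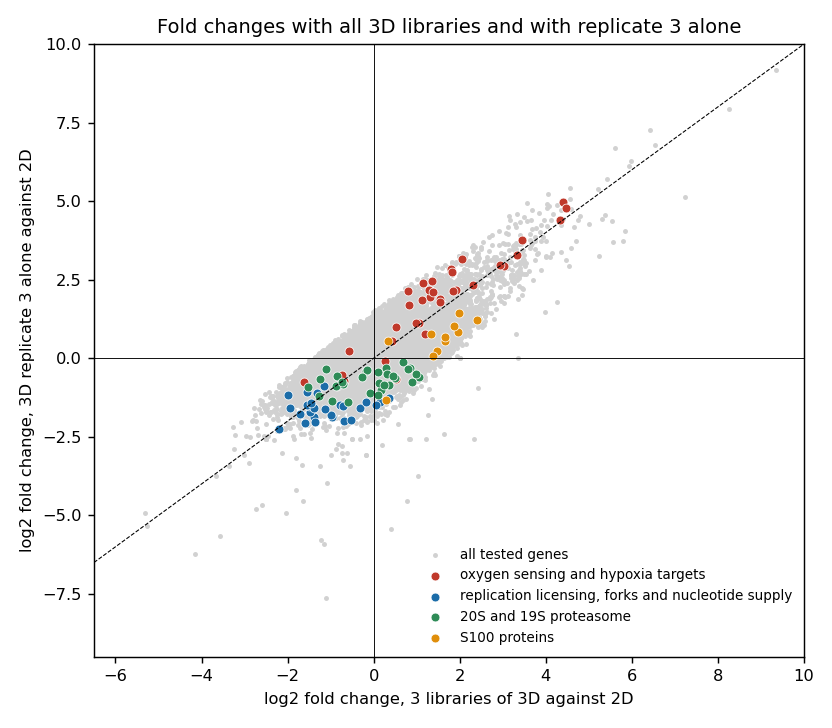
Log2 fold change against 2D with all 3 libraries of 3D (x axis) and with 3D replicate 3 alone (y axis) for every tested gene, with 4 gene lists in colour; the dashed line marks equal values, and both axes use the same 2D libraries. Most hypoxia genes lie to the upper right, replication genes lie below 0 on the y axis in 27 of 27 cases, proteasome genes lie near 0 on the x axis (median 0.10) but below 0 on the y axis (median -0.68), and S100 genes lie further along the x axis (median 1.65) than the y axis (median 0.66).

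The 12 largest rises that stood in all 3 fits, ranked by the smallest of their 3 fold changes, were DUOXA2, DUOX2, CYP2J2, EGLN3, LCN2, CP, MCHR1, IGFBP3, IGFBP5, TFF1, CFB and REG4. They hold the dual oxidase pair, secreted epithelial proteins, acute-phase proteins and IGF-binding proteins. DUOX2 measured 0.643, 0.478 and 0.646 CPM in the 2D libraries and 40.01, 60.8 and 66.2 CPM in the 3D libraries, a 93.4-fold rise (log2 6.54 ± 0.58 SE, adjusted p = 0.000642). DUOXA2 measured 0.107, 0.0531 and 0.0539 CPM in 2D and 15.9, 36.7 and 19.2 CPM in 3D (log2 8.24 ± 0.996, adjusted p = 0.00133). Both genes were nearly silent in all 2D libraries and present in all 3D libraries, with no overlap.

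CYP2J2, an epoxygenase of arachidonic acid, measured 0.536, 1.11 and 0.754 CPM in 2D and 13.1, 8.45 and 35.2 CPM in 3D. CP, the copper-carrying ferroxidase ceruloplasmin, measured 6.32, 11.4 and 9.7 CPM in 2D and 63.2, 46.9 and 342 CPM in 3D (log2 4.05 ± 0.77, adjusted p = 0.00631). For both, replicate 3 was the highest 3D library. IGFBP3 measured 23.4, 33.2 and 34.8 CPM in 2D and 394, 274 and 880.3 CPM in 3D, and IGFBP5 measured 1.61, 2.76 and 1.78 and 9.44, 42.7 and 44.02 CPM. These proteins bind insulin-like growth factors outside the cell. CFB, complement factor B, measured 0.643, 1.33 and 0.862 CPM in 2D and 11.1, 18.3 and 20.2 CPM in 3D. MCHR1, the receptor of melanin-concentrating hormone, measured 0.429, 0.955 and 0.377 CPM in 2D and 8.91, 17.8 and 16.1 CPM in 3D.

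LCN2, TFF1 and REG4, by contrast, were lowest in replicate 3 among the 3D libraries. LCN2, which binds bacterial iron carriers, measured 1.02, 0.69 and 0.97 CPM in 2D and 56.6, 82.3 and 15.02 CPM in 3D (log2 5.83 ± 0.73, 4.05 with replicate 3 alone). The trefoil factor TFF1 measured 5.09, 6.79 and 6.84 CPM in 2D and 457, 154 and 134 CPM in 3D, and the secreted lectin REG4 0.375, 0.372 and 0.485 and 28.7, 35.7 and 5.53 CPM. In all 3 genes the lowest 3D library was still far above every 2D library.

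The 12 largest falls were EFR3B, ESCO2, CLSPN, DDIAS, FAM111B, DSCC1, MAP2, KLHL4, CDC25A, AQP3, CENPN and MICAL2. They hold genes of sister chromatid cohesion (ESCO2, DSCC1), the S-phase checkpoint (CLSPN), cell cycle entry (CDC25A) and the centromere (CENPN), next to cytoskeletal genes (MAP2, MICAL2) and the water and glycerol channel AQP3. CLSPN measured 23.3, 23.1 and 22.8 CPM in 2D and 3.62, 2.86 and 4.28 CPM in 3D (log2 -2.68 ± 0.24, adjusted p = 0.000642). CENPN measured 35.8, 36.1 and 36.03 CPM in 2D and 11.02, 10.8 and 9.99 CPM in 3D, and the 3D libraries lay closer together for it than for any other of the 12 genes. ESCO2 measured 22.4, 23.5 and 22.7 CPM in 2D and 1.81, 0.209 and 5.03 CPM in 3D, the lowest 3D value being in replicate 2. FAM111B, a protease of replicating cells, measured 28.6, 25.5 and 27.4 CPM in 2D and 2.42, 0.419 and 6.7 CPM in 3D. Without 3D replicate 1, ESCO2 and FAM111B missed the threshold (adjusted p = 0.0539 and 0.0536).

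EFR3B, which anchors a lipid kinase at the plasma membrane, measured 17.8, 17.2 and 16.4 CPM in 2D and 3.4, 4.05 and 2.86 CPM in 3D. MICAL2, an enzyme that oxidises actin, measured 51.1, 51.3 and 47.1 CPM in 2D and 14.9, 19.97 and 10.9 CPM in 3D. AQP3 measured 218, 156 and 162 CPM in 2D and 59.6, 74.6 and 19.7 CPM in 3D, and its fall was deeper with replicate 3 alone (log2 -3.19) than with all libraries (-1.80). Its call was lost without 2D replicate 1 (adjusted p = 0.0555).

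The second-round 3D controls offer levels of the same line in the 3D model, scaled together with the first round. Round and group cannot be told apart, so no test was made. For 12 of the 12 rises the mean of the 3D controls lay between the first-round 2D and 3D means, and every control library lay above every 2D library. For 8 of the 12, every control library also lay below every first-round 3D library; CYP2J2, CP, IGFBP3 and IGFBP5 were the exceptions. DUOX2, for example, measured 11.4, 8.45 and 8.17 CPM in the controls, and IGFBP3 389.9, 317 and 306 CPM. For 11 of the 12 falls the control mean again lay between both groups, the exception being AQP3 at 162, 184 and 204 CPM, which overlapped 2D. For 12 of the 12 falls every control library lay above every first-round 3D library. All of these genes were picked for the largest first-round differences without overlap, which favours control levels short of first-round 3D. The counts therefore describe the picked genes only, and the same counts over all tested genes were not made.

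**Figure D3:**
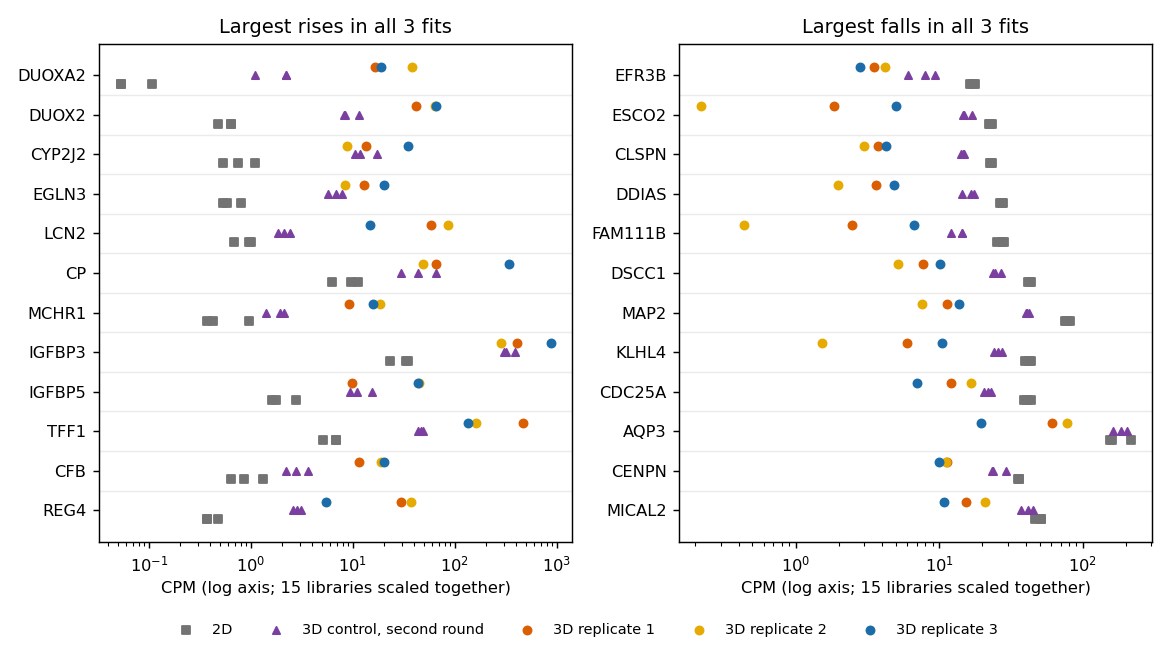
CPM on a log axis, 15 libraries scaled together, of the 12 largest rises (left) and 12 largest falls (right); each point is 1 library of 2D, of first-round 3D or of the second-round 3D controls. Controls sit between 2D and first-round 3D for most of these genes, which were picked for large first-round differences. AQP3 is the exception among the falls.

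Of the genes in the series title, IL4I1, a secreted enzyme that oxidises amino acids such as phenylalanine and tryptophan, measured 0.268, 0.584 and 0.377 CPM in 2D and 8.98, 18.2 and 5.59 CPM in 3D. Every 3D library lay above every 2D library, and the rise with replicate 3 alone was log2 3.73 (adjusted p = 0.000404). IL4I1 overlaps NUP62 on the same strand, so its reads are uncertain in part. AHR, a receptor for aromatic ligands, measured 107, 119.8 and 112 CPM in 2D and 31.5, 18.3 and 71.5 CPM in 3D; its log2 fold change of -1.48 with all libraries (adjusted p = 0.029) shrank to -0.67 with replicate 3 alone (adjusted p = 0.0181) and to -0.33 with the offset (adjusted p = 0.211). The AHR call also ended without any 1 of the 2D libraries or 3D replicate 1 (adjusted p 0.073 to 0.106). The transcription factor SP1 measured 144, 150.3 and 148 CPM in 2D and 122, 99.99 and 193 CPM in 3D, and its groups overlapped. SP1 lay below 2D in replicates 1 and 2 and above it in replicate 3, so that its log2 fold change was -0.10 with all libraries (adjusted p = 0.773), 0.37 with replicate 3 alone (adjusted p = 0.0271), 0.58 with the offset (adjusted p = 0.00619) and -0.42 without replicate 3 (adjusted p = 0.0163).

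In the list of oxygen sensing and hypoxia targets (34 genes, all tested), most members called were higher. With all libraries 19 were higher and 3 lower (median log2 1.33), and with replicate 3 alone 28 and 4 (median 2.13), beside 20% and 22.9% of all tested genes higher. The 3 lower genes were HIF1A, EPAS1 and VHL, which encode both main HIF alpha subunits and the protein that marks them for destruction. HIF1A measured 141, 143 and 145 CPM in 2D and 38.1, 16.4 and 84.7 CPM in 3D, with -0.77 for replicate 3 alone against -1.62. EPAS1 measured 263, 269.8 and 259 CPM in 2D and 154, 175 and 163 CPM in 3D, nearly alike in all 3D libraries. These 3 calls rest on the full set of libraries: that of HIF1A ended without any 1 of the 2D or animal libraries or 3D replicate 1 (adjusted p 0.0507 to 0.113), that of VHL without any 1 of the 2D libraries or 3D replicate 1 (0.0614 to 0.073), and that of EPAS1 without 2D replicate 1 or 2 (0.0515 and 0.0554). Among the hydroxylases that sense oxygen, EGLN3 rose from 0.536, 0.584 and 0.808 CPM in 2D to 12.6, 8.1 and 20.4 CPM in 3D, while EGLN1 was called in none of the 3 fits (without 3D replicate 3 it was lower, adjusted p = 0.00343).

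Among the targets, the largest rises were those of secreted factors, surface enzymes and stress genes. ANGPTL4 measured 27.4, 33.2 and 35.5 CPM in 2D and 653, 583 and 879.6 CPM in 3D (log2 4.46 ± 0.38, adjusted p = 0.000642). CA9 measured 12.9, 22.5 and 20.1 CPM in 2D and 466, 267 and 389.7 CPM in 3D, and NDRG1, a stress-regulated differentiation gene, 451, 653 and 621 and 5661, 5198 and 7791 CPM. HILPDA, a lipid droplet protein, and DDIT4, an inhibitor of mTORC1, rose 8.18-fold and 7.64-fold, with 146, 112 and 118 and 261, 228 and 252 CPM in 3D. These genes had similar levels in all 3 libraries of 3D.

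Other targets differed more between the 3D libraries. VEGFA, the vascular growth factor, measured 89.6, 114 and 113 CPM in 2D and 189.9, 144 and 764 CPM in 3D, highest in replicate 3, and its call ended without any 1 of the 2D or animal libraries (adjusted p 0.0604 to 0.135). ERO1A, an oxidase of the endoplasmic reticulum, measured 84.7, 101 and 96.7 CPM in 2D and 251, 72.4 and 839 CPM in 3D, and PLOD2, a collagen lysyl hydroxylase, 159.98, 202 and 189.8 and 189, 43.7 and 986 CPM. In both ERO1A and PLOD2 replicate 2 lay below every 2D library, replicate 3 lay far above, and the call came with replicate 3 alone (log2 3.15 and 2.41, adjusted p = 6.66e-05 and 0.000345) and not with all libraries (adjusted p = 0.0503 and 0.311). With the offset both were called (adjusted p = 0.000333 and 0.0181), and ERO1A also with DESeq2 (adjusted p = 0.00375), median-ratio scaling (0.0399), the stricter filter (0.0496) and without 3D replicate 2 (0.00587). LOX, which crosslinks collagen, measured 5.14, 5.79 and 6.73 CPM in 2D and 2.72, 1.47 and 26.4 CPM in 3D, with replicates 1 and 2 below 2D and replicate 3 above; it was called higher with replicate 3 alone (adjusted p = 0.000869) and lower without replicate 3 (adjusted p = 0.00406). The transcripts of ERO1A, PLOD2 and LOX are low in GC (38.7, 37.6 and 39.6%), against 63.3, 60.1 and 58.0% for ANGPTL4, CA9 and NDRG1.

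Of 25 glycolysis genes, 17 were higher and 1 lower with all libraries (median 1.30), and 17 and 2 with replicate 3 alone (median 1.07). The rises ran along the pathway: the glucose carrier SLC2A1, the aldolases, GAPDH, PGK1, LDHA and the lactate carrier SLC16A3 were called in all 3 fits. PFKFB4, which makes the activator of phosphofructokinase, measured 9.38, 13.5 and 15.2 CPM in 2D and 199, 149 and 205 CPM in 3D. ALDOC measured 10.4, 13.5 and 14.4 CPM in 2D and 182, 167 and 169.6 CPM in 3D. The lower gene was LDHB, the lactate dehydrogenase subunit that favours pyruvate, at 753, 751 and 753 CPM in 2D and 418, 393 and 377 CPM in 3D (log2 -0.93 ± 0.15, adjusted p = 0.00353). LDHA and LDHB thus moved in opposite directions. PDK1, which blocks pyruvate dehydrogenase, rose with replicate 3 alone (19.98, 19.3 and 19.8 CPM in 2D, 20.9, 9.36 and 80.6 CPM in 3D, adjusted p = 0.000105) and with the offset (log2 1.64, adjusted p = 0.00114), and was not called with all libraries without it (adjusted p = 0.281).

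Of the 40 lists, all chosen with earlier results of these data known, the dual oxidase and mucosal secretory list had the highest median with all libraries. It holds DUOX2, DUOXA2, LCN2, TFF1 and REG4, already named among the 12 largest rises, so the rank gives no separate support. Its counts stand beside 20% of all tested genes higher with all libraries. Of its 20 genes 18 were tested with all libraries, and 15 were higher and none lower (median 3.17). The median was 3.10 with replicate 3 alone, and 17 genes were higher with the offset. Beside the dual oxidases, the surface mucin MUC1 measured 27.1, 30.04 and 30.7 CPM in 2D and 244, 121 and 252 CPM in 3D, and PDZK1IP1, a small membrane protein of epithelia, 1.07, 1.01 and 0.97 and 38.3, 40.1 and 19.9 CPM. TFF3 measured 1.23, 2.65 and 2.15 CPM in 2D and 32.4, 16.97 and 12.5 CPM in 3D, so that all 3 trefoil factors rose. PIGR, the carrier of IgA across epithelia, stood at 0.0536, 0.318 and 0.0539 CPM in 2D and 1.59, 1.4 and 1.49 CPM in 3D. Only NOX1, AGR2 and CEACAM6 of the tested members were not called with all libraries.

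In the chemokine, complement and antigen presentation lists, most called members were higher with all libraries. Of all tested genes 20% were higher and 12.9% lower. Of 19 chemokines and cytokines 13 were higher and 1 lower (12 and 1 with replicate 3 alone; median 1.72 and 1.35); without 2D replicate 1 or 2, 8 were higher. The neutrophil attractant CXCL1 measured 0.161, 0.106 and 0.108 CPM in 2D and 1.96, 3.63 and 1.24 CPM in 3D. CCL20 measured 2.46, 2.92 and 2.85 CPM in 2D and 16.6, 21.2 and 20.7 CPM in 3D, alike in all 3D libraries. IL32 measured 70.99, 70.4 and 76 CPM in 2D and 572, 552 and 186 CPM in 3D, and IL1B 0.375, 0.584 and 0.539 and 3.47, 6.91 and 3.6 CPM. The lower gene was IL18, at 27.6, 27.3 and 30.2 CPM in 2D and 14.8, 9.85 and 13.5 CPM in 3D, a call that ended without any 1 of the 2D libraries (adjusted p 0.0574 to 0.0655). Levels of several of these transcripts stayed under 10 CPM.

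Of 14 tested complement genes 7 were higher and none lower with all libraries (median 1, and 1.13 with replicate 3 alone). Without any 1 of the 2D libraries 4 were higher. The alternative pathway enzyme CFB rose most. C3, the central component, measured 1.23, 0.955 and 0.754 CPM in 2D and 3.1, 8.66 and 3.79 CPM in 3D. Of 21 antigen presentation genes 15 were higher and none lower with all libraries (median 1.30), and 18 higher and 3 lower with replicate 3 alone (median 0.79). TAPBP, which loads peptides onto class I molecules, measured 84.7, 83.96 and 84.5 CPM in 2D and 329, 349 and 279.9 CPM in 3D. HLA-B measured 8.09, 9.5 and 7.54 CPM in 2D and 33.8, 29.2 and 21.2 CPM in 3D; HLA genes share near-identical stretches, so the split of reads among them is uncertain. The 3 genes lower with replicate 3 alone were TAP2, PSME2 and the class I activator NLRC5.

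The S100 list, calcium-binding proteins of epithelia, had 9 of 11 genes higher with all libraries and 7 with replicate 3 alone, and its median dropped from 1.65 to 0.66; with the offset 4 were higher (median 0.35). S100P measured 119, 121 and 118 CPM in 2D and 977, 642 and 279 CPM in 3D. S100A16 and S100A11 were not called with replicate 3 alone (adjusted p = 0.68 and 0.21), nor without any 1 of the 2D libraries or 3D replicate 1 (0.0663 to 0.0933); S100A16 was also not called without 3D replicate 2 (0.0649). Lysosomal genes showed a similar difference between the libraries, with 15 of 34 higher and 1 lower with all libraries (median 0.86) against 14 and 5 with replicate 3 alone (median 0.11). CD68, a lysosomal glycoprotein, measured 97.9, 103 and 102 CPM in 2D and 449, 453 and 378 CPM in 3D, and the protease gene CTSA 333, 324 and 337 and 964, 935 and 636 CPM.

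The list of DNA replication genes had a median below 2D in every 3D library (-1.09, -1.22 and -1.47 on the log2(CPM + 1) scale). Of 27 genes for licensing, forks and nucleotide supply, 18 were lower and none higher with all libraries (median -1.32) and 27 were lower with replicate 3 alone (median -1.57), beside 12.9% and 23.6% of all tested genes lower. PCNA measured 223, 215 and 215 CPM in 2D and 102, 77.1 and 72.8 CPM in 3D (log2 -1.38 ± 0.18, adjusted p = 0.00176). MCM10, a fork initiation factor, measured 46.1, 47.2 and 45.7 CPM in 2D and 8, 12.6 and 9.81 CPM in 3D, and RRM1, the large subunit of ribonucleotide reductase, 173, 166 and 167 and 59.6, 62.5 and 62.8 CPM. All 3D libraries lay below all 2D libraries in these 3 genes. In bulk samples, fewer cycling cells and less of each transcript per cell cannot be told apart.

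The 9 replication genes called with replicate 3 alone and not with all libraries included MCM5, CDT1 and TK1, whose transcripts hold 56.6, 64.9 and 62.8% GC. The helicase subunit MCM5 measured 155, 151 and 154 CPM in 2D and 172, 277 and 58.9 CPM in 3D. The licensing factor CDT1 measured 73.4, 72.1 and 70.5 CPM in 2D and 81.6, 116 and 26.1 CPM in 3D, and thymidine kinase TK1 195, 188 and 192 and 328, 327 and 79.6 CPM. In these genes replicates 1 and 2 lay above the 2D libraries and replicate 3 far below them.

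Most called genes of repair and mitosis were lower with all libraries, beside 12.9% of all tested genes lower. Of 22 Fanconi and recombination genes 16 were lower and none higher with all libraries (median -1.79), and 18 lower and 1 higher with replicate 3 alone (median -1.11); the higher gene was the kinase ATM. Without any 1 of the 2D libraries 7 or 8 were lower, and without 3D replicate 1, 6. FANCI measured 65.6, 69.4 and 67.4 CPM in 2D and 18.2, 17.7 and 19.99 CPM in 3D, and BRCA1 36.97, 40.1 and 39.4 and 7.4, 4.12 and 15.95 CPM. Of 19 tested kinesins, motors of the spindle and of transport, 9 were lower with all libraries and 17 with replicate 3 alone, and none was higher; 5 were lower without 2D replicate 1, 4 without 3D replicate 1 and 16 without 3D replicate 3. KIF4A measured 186, 185 and 178 CPM in 2D and 71.6, 66.4 and 63.3 CPM in 3D. Of the 13 tested canonical histone genes, on the other hand, 8 were higher and none lower with all libraries (median 1.5, and 1.15 with replicate 3 alone). Only 3 or 4 were higher without any 1 of the 2D libraries or 3D replicate 1. HIST1H2BD measured 5.52, 6.9 and 7.27 CPM in 2D and 28.99, 18.2 and 39.5 CPM in 3D. Canonical histone mRNAs mostly lack poly(A) tails and their genes are near copies of each other, so these counts are uncertain.

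**Figure D4:**
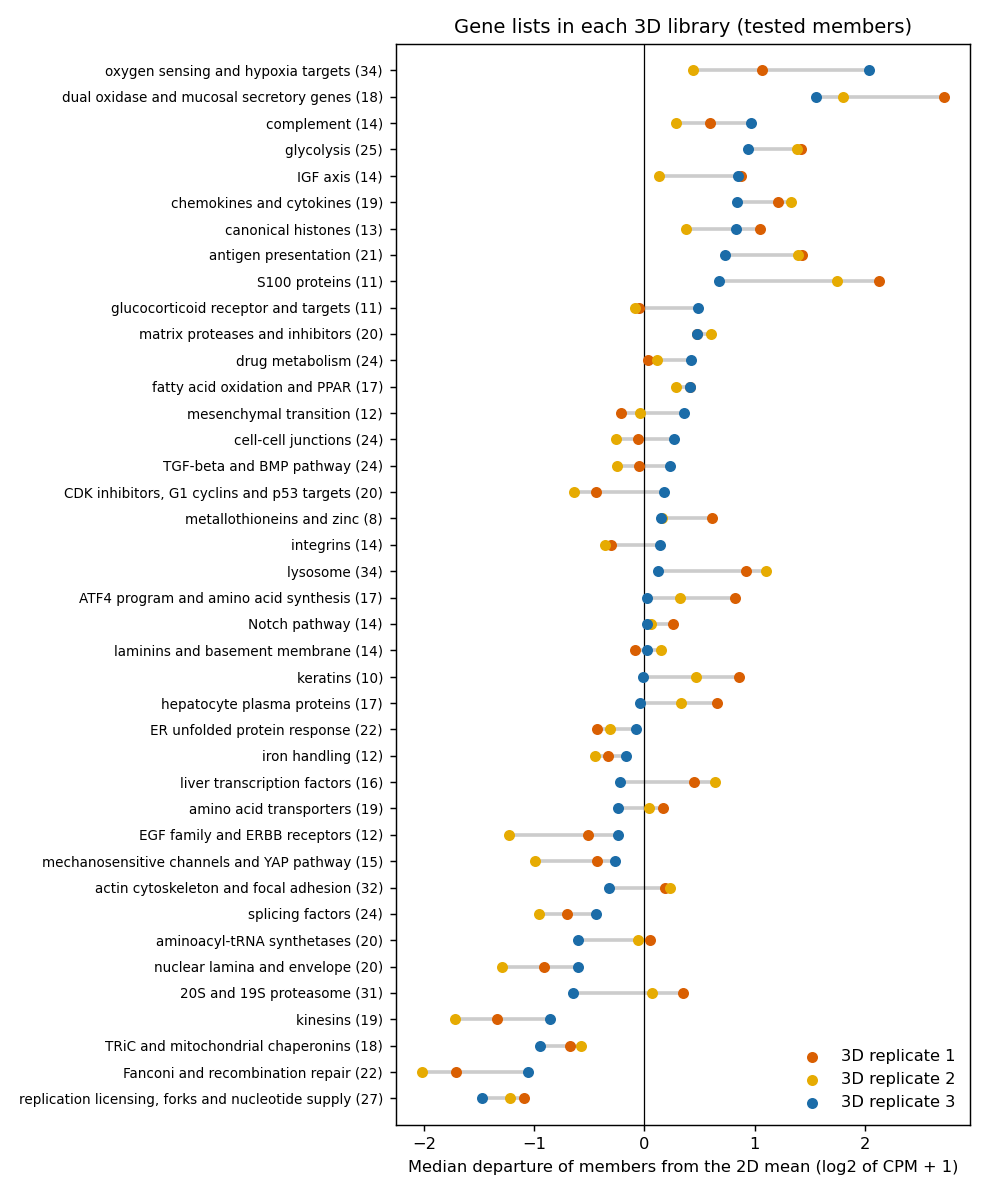
Median departure of each list's tested members from the 2D mean, log2(CPM + 1), in 3D replicates 1, 2 and 3 (points; the grey bar spans them), for 40 gene lists with the number of tested members in brackets. Hypoxia, glycolysis and mucosal lists lie right of 0 and replication, repair, kinesin and chaperonin lists left of 0 in all 3 libraries, while the proteasome, aminoacyl-tRNA synthetase and actin lists change side between libraries.

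Lists of the protein-making and protein-clearing machinery separated the 3D libraries. Of 31 proteasome genes 10 were lower and none higher with all libraries (median 0.10; 6 lower without 2D replicate 1), but 29 were lower and none higher with replicate 3 alone (median -0.68). PSMD14, a deubiquitinase of the lid, measured 71.6, 65.97 and 65.4 CPM in 2D and 33.5, 21.6 and 29.6 CPM in 3D. PSMB2, a core subunit, measured 164, 153 and 155 CPM in 2D and 209, 165 and 73.9 CPM in 3D, so that only replicate 3 was below 2D. Of 20 aminoacyl-tRNA synthetases 6 were lower and 1 higher, and 14 and 2 with replicate 3 alone (median -0.21 and -0.61); without any 1 of the 2D libraries or 3D replicate 1, 2 or 3 were lower. With the offset 9 proteasome genes were lower and 1 higher (median -0.24), and 1 synthetase was lower and 1 higher (median -0.16). Of 24 splicing factors 8 were lower and none higher (median -0.50), and 16 lower and 3 higher with replicate 3 alone, but the offset moved the median to 0.09. Without any 1 of the 2D libraries 5 splicing factors were lower, and without 3D replicate 3, 19.

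The chaperonin list differed less between the 3D libraries. Of 18 genes 8 were lower and 1 higher with all libraries (median -0.79), and 13 lower and 1 higher with replicate 3 alone (median -0.97). CCT6A, a subunit of the TRiC complex that folds actin and tubulin, measured 488, 474 and 483 CPM in 2D and 179, 162 and 183 CPM in 3D, and CCT2 327, 318 and 308 and 122, 113 and 132 CPM. HSPD1, the mitochondrial chaperonin, measured 649, 653 and 628 CPM in 2D and 222, 188 and 242 CPM in 3D (log2 -1.57 ± 0.18, adjusted p = 0.00116). Its partner HSPE1, whose start lies 105 bases from that of HSPD1, measured 129, 123 and 135 CPM in 2D and 130.4, 110.3 and 76.5 CPM in 3D and was called lower with replicate 3 alone (adjusted p = 0.00503), not with all libraries (adjusted p = 0.329). The higher gene was the prefoldin subunit PFDN5.

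The lists of genes that couple cells to their surroundings stand beside the shares of all tested genes (20% higher and 12.9% lower with all libraries, 22.9% and 23.6% with replicate 3 alone). Of 14 integrins 2 were higher and none lower, ITGA5 and ITGB4, the fibronectin and laminin receptor subunits (3 and 1 with replicate 3 alone). ITGA5 measured 119, 118 and 119 CPM in 2D and 1027, 889 and 906 CPM in 3D (log2 2.99 ± 0.17, adjusted p = 0.000359). ITGB4 measured 540.3, 559 and 538 CPM in 2D and 1455, 1761 and 1519.9 CPM in 3D. Both were alike in all 3D libraries and above all 2D libraries. Of the ligands, FN1, fibronectin, measured 5766, 6821 and 6146 CPM in 2D and 9969, 14250.5 and 16266 CPM in 3D, a call lost without any 1 of the 2D libraries (adjusted p 0.065 to 0.083). Of 14 tested laminin and basement membrane genes 4 were higher (LAMA5, LAMB2, LAMB3 and AGRN; LAMB3 not with the offset, adjusted p = 0.104) and LAMA3 was lower, a call that ended without any 1 of the 2D or animal libraries or 3D replicate 1 (adjusted p 0.0583 to 0.125); with replicate 3 alone 4 were higher and 2 lower. LAMB2 measured 44.95, 48.8 and 46.3 CPM in 2D and 105, 136 and 188 CPM in 3D.

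Of 20 tested matrix proteases and inhibitors 7 were higher and none lower (4 higher without 2D replicate 2 or 3), against 8 and 1 of 21 with replicate 3 alone and 4 and 2 with the offset (median 1.01, 0.59 and 0.35). Among the higher genes were MMP7 at 66.9, 78.5 and 76.6 CPM in 2D and 204, 163 and 167 CPM in 3D, and SPINT1, an inhibitor of surface serine proteases, at 12, 10.9 and 11.1 and 63.6, 102 and 39.4 CPM. Of 24 junction genes 6 were higher (including CDH1, CLDN4 and F11R) and 3 lower, or 25% and 12.5%, close to the shares of all tested genes, and 9 and 3 with replicate 3 alone. Without 2D replicate 2 these counts were 3 and 1, without 2D replicate 3 the higher genes numbered 3, and without 3D replicate 3 the lower genes numbered 9. CDH1, E-cadherin, measured 24.8, 34.3 and 32.4 CPM in 2D and 47.3, 73.9 and 74.7 CPM in 3D, a call lost without any 1 of the 2D libraries (adjusted p 0.0586 to 0.0856).

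The series title names confinement, and the lists of the force-bearing apparatus were described for that reason. Their counts stand beside the shares of all tested genes given above for each fit, 20% higher and 12.9% lower with all libraries. Of 32 actin and focal adhesion genes 4 were higher and 3 lower with all libraries, and 2 and 14 with replicate 3 alone (median 0.10 and -0.34); leaving out any 1 library other than 3D replicate 3 left 1 higher, and leaving out 3D replicate 3 gave 16 higher and 9 lower. Of 20 nuclear lamina and envelope genes 8 were lower and 1 higher (11 and 3 with replicate 3 alone; median -0.60 and -0.62). LMNB1, lamin B1, measured 93.4, 104 and 99.3 CPM in 2D and 38.1, 38.9 and 29.2 CPM in 3D, and TMPO, a lamina-binding protein, 480.4, 484 and 479 and 109, 73.5 and 146 CPM. LMNA, which encodes lamins A and C, measured 1903, 1877 and 1817 CPM in 2D and 3170.2, 3791 and 1568 CPM in 3D and was called in none of the 3 fits; its replicates 1 and 2 lay above 2D and replicate 3 below, and without replicate 3 it was higher (adjusted p = 0.000264). Of 15 tested genes of mechanosensitive channels and the YAP pathway, PIEZO1 was higher and YAP1, LATS2 and ANKRD1 lower (1 higher and 4 lower of 16 with replicate 3 alone), with 1 lower gene without any 1 of the 2D libraries or 3D replicate 1 and 8 without 3D replicate 3. ANKRD1, a YAP target, measured 8.36, 5.94 and 5.98 CPM in 2D and 0.755, 0.14 and 1.24 CPM in 3D. The channel PIEZO1 measured 163, 180.1 and 176 CPM in 2D and 255, 418 and 282 CPM in 3D, a call lost with the offset (adjusted p = 0.251) and without any 1 of the 2D libraries (adjusted p 0.0741 to 0.087). The LATS2 call was lost without any 1 of the 2D libraries or 3D replicate 1 or 2 (adjusted p 0.0549 to 0.109), and LATS2 was not called with replicate 3 alone (adjusted p = 0.0623). The YAP1 call was lost without any 1 of the 2D or animal libraries or 3D replicate 1 (adjusted p 0.0528 to 0.119).

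Among growth signals, some ligands of the EGF family were called lower and a receptor higher with all libraries. Of these ligand calls only that of BTC held without any 1 of the 2D libraries. List counts here stand beside the shares of all tested genes given above for each fit, 20% higher and 12.9% lower with all libraries. Of 12 genes 4 were lower, TGFA, AREG, EREG and BTC, and ERBB3 was higher, with the same counts of lower genes with replicate 3 alone and with the offset, and 8 lower without 3D replicate 3; 3 were higher with replicate 3 alone. ERBB3 measured 44.8, 50.5 and 50.8 CPM in 2D and 149, 183 and 172 CPM in 3D, and BTC, betacellulin, 8.84, 8.92 and 8.03 and 2.57, 1.47 and 3.48 CPM. The EREG call was lost without any 1 of the 2D libraries or 3D replicate 1 (adjusted p 0.062 to 0.0914), the AREG call without any 1 of the 2D libraries (0.0524 to 0.0651), and the TGFA call without any 1 of the 2D libraries or 3D replicate 1 or 2 (0.0534 to 0.0971). In the IGF axis 6 of 14 were higher and none lower (8 and 2 with replicate 3 alone, 5 and none with the offset), 5 of the 6 binding proteins (IGFBP1, 3, 4, 5 and 6; IGFBP6 not with the offset, adjusted p = 0.117). IGFBP1 measured 36.2, 30.4 and 36.6 CPM in 2D and 327, 121 and 352 CPM in 3D. Of 24 tested genes of the TGF-beta and BMP pathway 3 were higher and 2 lower with all libraries (median 0.12, and 0.22 with replicate 3 alone). The ligands TGFB1 and TGFB2 diverged. TGFB1 measured 248, 249 and 267 CPM in 2D and 1335, 1373 and 758 CPM in 3D. TGFB2 measured 50.3, 51.5 and 49.7 CPM in 2D and 10.9, 7.05 and 16.8 CPM in 3D. TGFB1 rose and TGFB2 fell in all 3 fits. Of 11 tested genes of the glucocorticoid receptor and its targets 2 were higher and 1 lower with all libraries (median -0.14, and 0.55 with replicate 3 alone). FKBP5, a chaperone of the receptor, fell at 143, 118 and 122 CPM in 2D and 20.4, 17.9 and 12.8 CPM in 3D. TSC22D3 rose at 30.9, 29.2 and 33.1 CPM in 2D and 162, 84.9 and 116 CPM in 3D.

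Liver identity was checked because the labels name hepatocellular carcinoma. The defining liver markers were near absent in both groups. ALB, albumin, averaged 2.37 CPM in 2D and 2.65 CPM in 3D, and AFP, alpha-fetoprotein, 2.02 and 1.45 CPM. GPC3 averaged 0.0892 and 0.0503 CPM, and EPCAM 0.357 and 0.255 CPM. The epithelial keratins KRT8 and KRT18 were abundant, with means of 3028 and 700.2 CPM in 2D. The list counts that follow stand beside the shares of all tested genes given above for each fit, 20% higher and 12.9% lower with all libraries. Of 17 tested plasma protein genes 1 was higher (TTR) and 1 lower (APOB), and 4 and 1 of 18 with replicate 3 alone. TTR missed the threshold without 2D replicate 2 (adjusted p = 0.0506), and APOB without any 1 of the 2D libraries, 3D replicate 1 or animal replicate 3 (0.0539 to 0.0945), nor with replicate 3 alone (0.0677). Of 16 tested liver transcription factors 4 were higher and 2 lower (1 higher without any 1 of the 2D libraries, 2 without 3D replicate 1 and 8 without 3D replicate 3), but 3 of 18 were higher and 6 lower with replicate 3 alone and 2 of 16 higher and 4 lower with the offset (median 0.43, -0.15 and -0.11), with CEBPD at 40.4, 41.3 and 38.2 CPM in 2D and 136, 135 and 123 CPM in 3D, a call lost with the offset (adjusted p = 0.0716).

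Markers of other cell types were low in both groups. The 8 leukocyte markers summed to 1.29 to 1.56 CPM in 2D and 0.559 to 2.11 CPM in 3D, with MS4A1 at 0 in all 6 libraries and PTPRC, the common leukocyte antigen, at means of 0.304 and 0.319 CPM. The 6 endothelial markers summed to 1.43 to 1.72 and 0.807 to 1.89 CPM, with EMCN at 0 in all 6. The 8 fibroblast markers summed to 64.8 to 69.5 CPM in 2D and 15.6 to 113.7 CPM in 3D, most of it from LUM, with means of 52.2 and 49.9 CPM. None of the leukocyte and endothelial markers tested was called. Of the 6 tested fibroblast markers 2 were lower with all libraries, COL1A1 and DCN, and with replicate 3 alone DCN was lower and LUM higher (LUM lower without replicate 3, adjusted p = 0.00715). The DCN call with all libraries ended without any 1 of the 2D libraries (0.0536 to 0.0885), and that of COL1A1 without 3D replicate 2 (0.0507).

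Of 17 tested genes of fatty acid oxidation 6 were higher and 2 lower (6 and 3 of 18 with replicate 3 alone). Of 24 tested drug metabolism genes 6 were higher and 1 lower (1 or 2 higher without any 1 of the 2D libraries; 7 and 1 with replicate 3 alone), or 25% higher beside 20% of all tested genes, led by CYP1A1 at 2.68, 1.38 and 2.37 CPM in 2D and 26.3, 8.31 and 14.7 CPM in 3D. Of 12 tested iron genes 4 were higher and 2 lower with all libraries, but 1 and 5 with replicate 3 alone and none and 2 with the offset, and none was higher without any 1 of the 2D libraries or 3D replicate 1. FTL, for example, measured 11158, 10625 and 11481 CPM in 2D and 45826, 39560.3 and 13743 CPM in 3D, and it was not called with replicate 3 alone (adjusted p = 0.29), nor without any 1 of the 2D libraries or 3D replicate 1 (0.0724 to 0.0803).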

How the data were processed

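RNA of the MHCC-97H line was read as single-end BGISEQ-500 nanoball libraries from fragmented mRNA, per the labels' protocols, with no step that marks strand. HISAT2 and the hg19 build are named in the submitters' processing notes. The version, the counter and its annotation, and any removal of mouse reads, are not given in the sources used here. The authors deposited raw read counts, not normalized, for 19143 gene symbols, 1443 of them at 0 throughout. Another 27 symbols had become dates (0.168% of counts): they stayed in the fits and are not named. Counting is taken as unstranded, so overlapping and antisense genes are uncertain.

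Groups came from the labels. Genes were tested with edgeR 4.0.16 (limma 3.58.1, R 4.3.3), using its low-count filter, TMM scaling and a robust quasi-likelihood test over all 9 first-round libraries with group as the single term. Calls needed a Benjamini-Hochberg adjusted p below 0.05. The same test was run with 3D replicate 3 as the lone 3D library (7 libraries, 13604 genes) and with an offset fitted in every library to the GC content and length of the longest protein-coding transcript (natural splines, 5 degrees of freedom, GENCODE annotation; 99.5% of tested genes had a value). Levels are CPM scaled with TMM. The scripts were tested on simulated data. DESeq2 1.42.0, other scalings, filters, a replicate block and leaving out each library were alternatives.

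The members and lists were chosen with earlier results of these data known. Of 853 entries in 40 gene lists and 4 marker lists, 849 matched a row; KIF23, HP, C1R and PER1 were not analysed here. Named are the 12 rises and 12 falls largest by the smallest of 3 fold changes among genes called in all 3 fits with a mean of at least 10 CPM and no overlap, the 2 to 4 members of a list with the smallest adjusted p called in both fits, genes with opposite calls, and SP1, IL4I1 and AHR. Other genes named were chosen after their values were seen. Some list members that the rule would name are not reported here. No coordinates of hg19 are given; promoters are those of RefSeq GRCh38.p14.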

Additional observations from a re-analysis of the deposited data

How the results depend on the processing

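With all libraries 2586 genes were higher and 1661 lower. Only the 2D and 3D libraries in the fit gave 1695 and 798, replicate 3 alone 3205 lower, and leaving out 1 library 1132 to 4560 higher and 663 to 4933 lower. For replicate 3 alone the 3111 higher genes became 4743 with only the 2D and 3D libraries. Correlations of the deviations of same-numbered 2D and 3D libraries were 0.218, -0.13 and 0.041, and those of differently numbered ones -0.231 to 0.189. Whether replicate numbers pair the libraries cannot be told from these, since the GC trend of 3D replicates 1 and 2 enters the deviations. A replicate block gave 1909 higher and 1356 lower. DESeq2 gave 3363 and 2225 and, like median-ratio scaling, moved the median log2 fold change of all genes from 0.025 to 0.105 and 0.106. The cause of these differences was not tested.

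Log2 fold changes of these genes changed sign. With the GC and length offset they were CDT1 -0.99, GSTP1 -0.088, LMNA -0.27, LUM 0.64, MCM5 -0.45, MT2A -0.17, PSMB2 0.79, PSME2 -0.43, SP1 0.58, TK1 -0.98, FARSB 0.084, HNRNPU 0.44, LARS 0.20 and PSMC2 0.53. With replicate 3 alone they were ATM 0.47, CDT1 -1.47, EGLN1 0.22, GSTP1 -0.072, LMNA -0.26, LUM 1.03, MCM5 -1.39, POLR2E -0.27, PSME2 -0.42, SP1 0.37 and TK1 -1.28. CDT1 was -0.041 with upper-quartile scaling and -0.061 with the replicate block, and PSMB2 0.031 with DESeq2 and with median-ratio scaling. Leaving out 1 library gave CDT1 -0.42 to 0.45, LOX -1.50 to 1.31, LUM -1.32 to 0.39, MCM5 -0.42 to 0.54, PDK1 -0.39 to 1.36, PLOD2 -0.67 to 1.67, PSMB2 -0.40 to 0.25 and SP1 -0.42 to 0.087. Of the 217 single genes recomputed, 204 kept their direction and side of the threshold without 3D replicate 3, 167 without 2D replicate 1, 214 with DESeq2, 154 with the offset and 186 with replicate 3 alone. Depth limits the genes under 1 CPM, where a value rests on few reads.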

Other observations

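Of all tested genes 20% were higher and 12.9% lower with all libraries, and 22.9% and 23.6% with replicate 3 alone. Of 20 tested CDK inhibitors, G1 cyclins and p53 targets 4 were higher and 2 lower with all libraries (6 and 6 of 21 with replicate 3 alone). BBC3, which encodes the pro-apoptotic PUMA, measured 14.1, 16.3 and 16.5 CPM in 2D and 80.7, 91.3 and 46.1 CPM in 3D, and GADD45A, a growth arrest gene and p53 target, 41.5, 39.9 and 39.1 and 17.1, 17.8 and 22.5 CPM; both were called in all 3 fits, in opposite directions. CDKN1A, the CDK inhibitor p21, measured 154, 159 and 156 CPM in 2D and 427, 469.7 and 178 CPM in 3D; it was not called with replicate 3 alone (adjusted p = 0.714), and leaving out any 1 library other than 3D replicate 3 or animal replicate 2 ended its call with all libraries (adjusted p 0.0505 to 0.138). Of 14 Notch genes the ligand JAG1 was lower and the targets HES1 and HES4 higher, with the same counts with replicate 3 alone and 1 higher and 4 lower with the offset. JAG1 measured 410.1, 418 and 393 CPM in 2D and 183, 173 and 280.4 CPM in 3D, and HES1 61.6, 64.2 and 68.3 and 153, 109 and 107 CPM. The JAG1 call ended without 2D replicate 1 or 2 or 3D replicate 1 (adjusted p 0.0519 to 0.0556), and that of HES1 without 2D replicate 1 (adjusted p = 0.0514).

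Of 22 genes of the unfolded protein response 2 were higher and 3 lower (2 and 7 with replicate 3 alone). The chaperone HSPA5 measured 802, 819 and 790.2 CPM in 2D and 445, 511 and 511 CPM in 3D, a call lost with the offset (adjusted p = 0.212) and without any 1 of the 2D libraries (adjusted p 0.0535 to 0.0594), and its cochaperone DNAJB11 106, 109 and 111 and 55.03, 45.7 and 73.1 CPM. Of 19 tested amino acid transporters 3 were higher and 2 lower (2 and 4 of 20 with replicate 3 alone), with SLC38A5 at 32.7, 32.5 and 33.9 CPM in 2D and 145, 103 and 119 CPM in 3D and SLC7A6 at 14.2, 13.5 and 12.8 and 6.11, 5.87 and 6.58 CPM. Of 8 tested metallothionein and zinc genes 4 were higher and 1 lower with all libraries, and 1 and 1 with replicate 3 alone. MT1X measured 2.73, 3.93 and 2.96 CPM in 2D and 58.1, 13.1 and 34.8 CPM in 3D and was called in all 3 fits. MT2A, at 15.2, 12.4 and 12.7 and 72.8, 26.1 and 15.5 CPM, lay well above 2D only in replicates 1 and 2, and its call ended without any 1 of the 2D or animal libraries or 3D replicate 1 (adjusted p 0.0674 to 0.151). When 1 library at a time was left out, the counts of higher genes ran from 2 to 6 for CDK inhibitors and p53 targets, 1 to 4 for Notch, 0 to 7 for the unfolded protein response, 1 to 7 for amino acid transporters and 1 to 4 for metallothioneins.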
